A study of Mus musculus with 3 samples.

Results

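The vomeronasal, taste and trace amine receptors are families of chemosensory G protein-coupled receptors, represented here by 200 of the 30854 gene symbols measured in mouse embryos at the early headfold (EHF) stage. Symbols were taken by the pattern of their names. They comprised 127 vomeronasal type 1 receptors (V1r), 23 vomeronasal type 2 receptors (V2r), 3 taste type 1 receptors (Tas1r), 32 taste type 2 receptors (Tas2r) and 15 trace amine-associated receptors (Taar). Total RNA was measured on 3 arrays of the Illumina Mouse-6 type, where a probe is read from many beads, and these form a single group of 3 replicates. The labels give the strain as Cd-1 and name no allele, agent or treatment, and the methods describe the embryonic part, cut away from the extraembryonic part, as the tissue used. No comparison of genotypes or stages can therefore be made. The sources do not settle whether an array holds 1 embryo or a pool, so the spread between arrays may be partly technical.

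In adult mice, V1r and V2r proteins are displayed by sensory neurons of the vomeronasal organ, where they detect pheromones and other social cues and signal through the channel Trpc2. Tas1r proteins pair to form the sweet and umami receptors, and Tas2r proteins detect bitter compounds, both in taste receptor cells that signal through gustducin (Gnat3) and the channel Trpm5. Taar proteins detect volatile amines, most of them in neurons of the olfactory epithelium. None of these sense organs has formed at the EHF stage, and the families are described here for the signal that the arrays gave for genes whose known sites of expression were absent.

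No receptor was detected on all 3 arrays. Detection was called where the deposited detection p-value, the share of that array's negative-control probes reaching the symbol's signal, was under 0.01. Of all symbols, 20.6% passed this threshold on all 3 arrays, against 0 of the 200 receptors. On at least 1 array it was passed by 33.0% of all symbols and by 3 receptors (1.5%), each on a different array. A single receptor passed on replicate 1, where 29.2% of all symbols did, a single one on replicate 2, where 26.6% did, and a single one on replicate 3, where 23.3% did. In whole tissue, fewer cells with a transcript and less of it per cell cannot be told apart.

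The arrays themselves detected other transcripts. Of 10 housekeeping symbols 6 were detected on all arrays, and all 10 were above the floor level in the limma test described below. The 4 that missed, *Eef1a1*, *Tubb5*, *Rplp0* and *Pgk1*, were symbols with several probes, whose deposited p-values appeared to be combined over probes. *Eef1a1* had log2 signals of 13.68, 13.45 and 13.02 but detection p-values of 0.0105 and 0.119 on replicates 1 and 3. Of 12 markers of the embryonic region, 9 were detected on all arrays, among them *Pou5f1*, *Otx2* and *T*, whereas *Foxa2*, *Tdgf1* and *Hesx1* were not. All 12 markers of visceral endoderm were also detected on all arrays. Of 10 of extraembryonic ectoderm, *Cdx2*, *Bmp4*, *Ets2*, *Rhox5* and *Tfap2c* were detected on all arrays and *Esrrb* on 1. *Elf5*, *Eomes*, *Ascl2* and *Gcm1* were detected on none. The part of such tissues in the receptor signals was not tested. Of 8 markers of olfactory and vomeronasal neurons, *Gap43* and *Stmn2* were detected on all arrays, and *Trpc2*, *Ncam1* and *Gng8* on 1 array each. *Tubb3* was detected on none, nor were *Omp* and *Cnga2*, which define mature olfactory neurons. Of 6 markers of taste receptor cells, the epithelial keratin *Krt8* alone was detected on all arrays.

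The receptors lay in a narrow band of signals. On replicate 1 their deposited log2 signals ran from 6.32 to 6.75 with a median of 6.50, on replicate 2 from 6.29 to 6.70 with a median of 6.46, and on replicate 3 from 6.17 to 6.60 with a median of 6.37. The detection floor, taken as the smallest signal among symbols with 1 probe that were called with a nonzero detection p, was 6.69, 6.66 and 6.58 on the same arrays, and symbols with several probes could be called at lower signals. The floor was thus 1.14-fold, 1.15-fold and 1.16-fold above the median receptor on the linear scale, before any subtraction of background. All but 1 of the receptors lay below this floor on each array. The deposited values carry no normalization between arrays, and the median of all symbols also differed between them, at 6.57, 6.51 and 6.42.

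**Figure D1:**
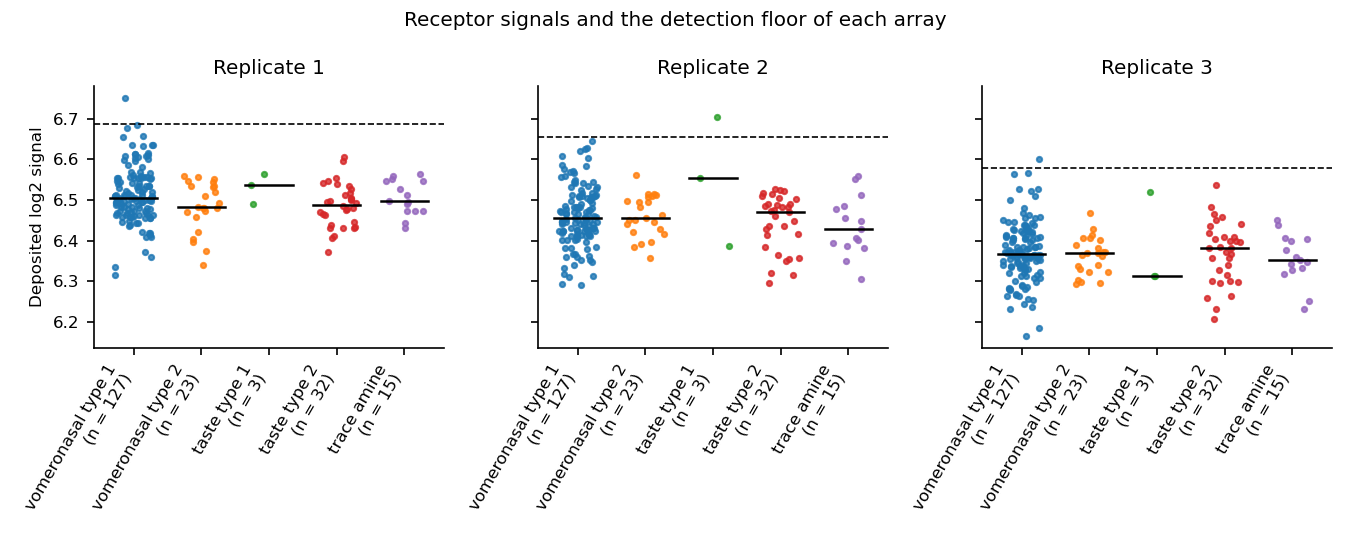
Each point is 1 receptor symbol, with its deposited log2 signal on the vertical axis and its family on the horizontal axis, in a panel for each of the 3 arrays. Black bars mark family medians and the dashed line marks the detection floor (6.69, 6.66 and 6.58), above which a single receptor lies on each array.

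*V1rj3*, a vomeronasal type 1 receptor, was the receptor above the floor on replicate 1. Its log2 signals were 6.75, 6.46 and 6.53 on replicates 1, 2 and 3, with detection p-values of 0.00214, 0.501 and 0.0299. Thus 2 control probes matched or exceeded it on replicate 1, and 469 of 936 did on replicate 2. The high value came from 25 beads, the lowest number among the receptors on that array and shared with others of them, where their median was 41.

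*Tas1r3*, which encodes the subunit shared by the sweet and umami receptors, was the one above the floor on replicate 2. Its log2 signals were 6.49, 6.70 and 6.52, with detection p-values of 0.615, 0.00321 and 0.0353. Its high value came from 24 beads, against a median of 40 for the receptors on replicate 2, and had a standard error over beads of 0.077 on the log2 scale. The signal on replicate 1 was below the median receptor of that array.

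*V1rb3*, a vomeronasal type 1 receptor, passed on replicate 3 alone. Its log2 signals were 6.54, 6.45 and 6.60, with detection p-values of 0.335, 0.524 and 0.00641, and 32 beads stood behind the value that passed. On the first 2 arrays it lay among the bulk of the receptors. None of these 3 calls was repeated on a second array.

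*V1rg11*, another vomeronasal type 1 receptor, passed on no array but lay just under the floor on all of them. Its log2 signals were 6.66, 6.63 and 6.57, a mean of 6.62 (SD 0.05, n = 3) and the highest mean of all 200 receptors. Detection p-values were 0.0256, 0.0182 and 0.0139, so 24, 17 and 13 control probes were at or above it. It was the only receptor with a detection p under 0.05 on all 3 arrays, where 2 others, *V1rj3* and *Tas1r3*, were under 0.05 on 2 arrays. Of all symbols, 24.7% were under 0.05 on all 3 arrays and 6.67% on 2. Whether its probe binds another transcript was not tested.

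The 250 bases before the annotated gene start are shown for *V1rg11*, *V1rj3* and *Tas1r3*, the 3 receptors with the highest mean signals, so that their content of the dinucleotide CG can be read beside that of a detected gene. That of *Gnb1*, which encodes a G protein beta subunit, is the detected gene, taken as the transduction gene with the highest signal among those for which the table held a sequence. Each is written from 5′ to 3′ along the gene's strand, with every CG in capitals, and comes from RefSeq on GRCm38.p6. *V1rg11* (current symbol *Vmn1r84*, chr7:12362765-12363014, minus strand) and *V1rj3* (current symbol *Vmn1r85*, chr7:13085216-13085465, minus strand) hold no CG and run up to an ATG. *Tas1r3* (chr4:155863354-155863603, minus strand) holds 5, and *Gnb1* (chr4:155491111-155491360, plus strand) holds 26.
*V1rg11*: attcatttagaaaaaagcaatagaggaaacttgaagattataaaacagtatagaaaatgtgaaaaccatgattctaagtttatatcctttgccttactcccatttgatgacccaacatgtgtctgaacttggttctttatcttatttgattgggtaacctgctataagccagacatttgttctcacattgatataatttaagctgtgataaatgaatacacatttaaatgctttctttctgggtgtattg
*V1rj3*: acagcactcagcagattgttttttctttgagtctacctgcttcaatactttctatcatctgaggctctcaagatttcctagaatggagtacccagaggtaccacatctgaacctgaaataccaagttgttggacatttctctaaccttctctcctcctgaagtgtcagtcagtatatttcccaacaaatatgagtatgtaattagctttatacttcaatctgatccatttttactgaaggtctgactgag
*Tas1r3*: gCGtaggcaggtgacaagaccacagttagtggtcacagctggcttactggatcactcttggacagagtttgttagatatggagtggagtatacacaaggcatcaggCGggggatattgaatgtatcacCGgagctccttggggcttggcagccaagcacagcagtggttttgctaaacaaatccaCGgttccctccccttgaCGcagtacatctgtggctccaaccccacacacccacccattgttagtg
*Gnb1*: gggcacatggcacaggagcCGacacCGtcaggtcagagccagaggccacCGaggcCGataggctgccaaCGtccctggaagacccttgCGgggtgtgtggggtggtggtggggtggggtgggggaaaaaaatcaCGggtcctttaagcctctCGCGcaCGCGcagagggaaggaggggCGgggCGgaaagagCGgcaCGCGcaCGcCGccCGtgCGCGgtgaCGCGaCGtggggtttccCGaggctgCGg
The 3 receptor windows contain 31.2%, 38.8% and 52.4% G and C in this order, against 69.2% for *Gnb1*. These counts describe the sequence and were not tested against the signals.

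The detection p-values of the receptors were spread over their whole range. Their medians were 0.547, 0.504 and 0.569 on the 3 arrays. By definition 1% of control probes have a detection p at or under about 0.01 and 5% at or under about 0.05. The receptors showed 0.5% under 0.01 on each array, and 6.0%, 6.0% and 4.5% under 0.05, where all symbols showed 36.0%, 33.9% and 30.1% under 0.05. At the opposite end, 4.0%, 5.5% and 7.5% had a detection p above 0.95. When the range was cut into 10 equal bins, between 4.5% and 14.5% of the receptors fell in each, whereas the lowest bin held 42.5%, 38.6% and 35.2% of all symbols.

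**Figure D2:**
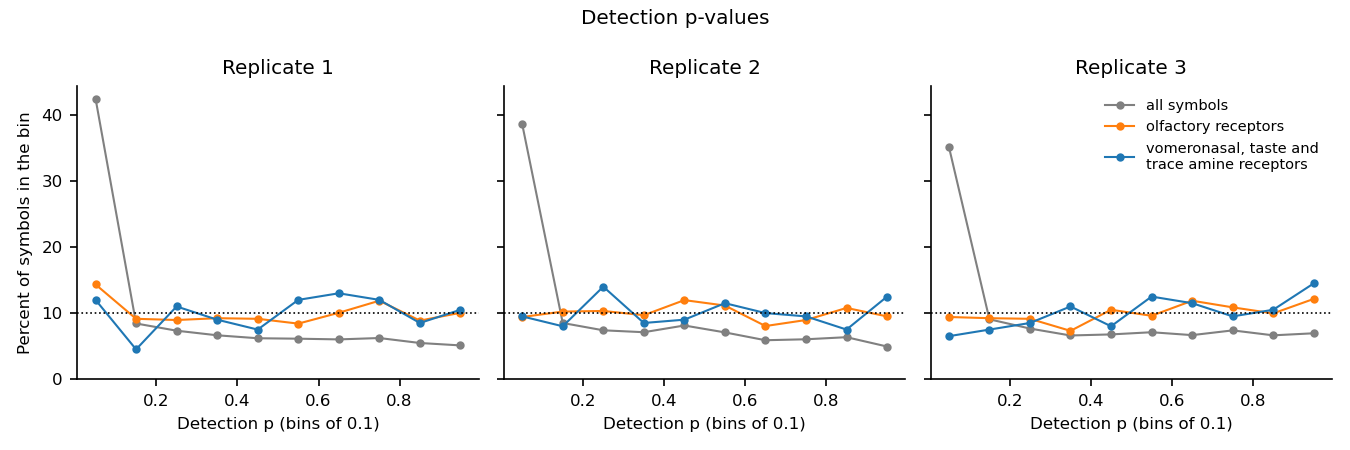
Percent of symbols (vertical axis) in each of 10 bins of detection p (horizontal axis), with a panel for each of the 3 arrays. The receptors (blue) and the olfactory receptors (orange) hold between 4.5% and 14.5% in every bin, around the dotted line at 10%, whereas all symbols (grey) reach 35.2% to 42.5% in the lowest bin.

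A test of levels also called no receptor, but it was not independent of the detection calls. After normexp background correction and quantile normalization, each symbol's level was compared with a floor level by the one-sided test of limma over all 30854 symbols. The floor level is the normalized level of the detection floor defined above, averaged over the arrays, and so stands near the top of the control probes rather than at their middle. On replicates 1, 2 and 3 it was 4.69, 4.81 and 5.06. The average was taken as fixed, so the SE and p-values leave out this spread. An adjusted p under 0.05 was reached by 25.8% of all symbols and by 0 of the 200 receptors, of which 0 had an unadjusted p under 0.05 either. Receptor levels relative to the floor level ran from -0.67 to -0.08 on this log2 scale, with a median of -0.54, where the median of all symbols was -0.46. *V1rg11* came closest, at -0.08 (SE 0.09, n = 3, limma adjusted p = 1.00), followed by *Tas1r3* at -0.18 (SE 0.15). For the 156 receptors with 1 probe and no call, a level below the floor level follows from the missing calls. The floor level is set by the same threshold, so the test gives no further evidence for them. For the 41 receptors that were not assigned 1 probe, and whose detection p may be combined, the test used no detection call of the symbol tested. Its floor level came from symbols with 1 probe, however, and symbols with several probes could be called at lower signals. A level below the floor level therefore does not show that such a receptor was at background.

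The families are described in turn, with no test between them. Among the V1r genes, the largest family, 2 of 127 passed on 1 array and 24 had a detection p under 0.05 on at least 1 array, which 44.0% of all symbols had. The V1r symbols fall into subfamilies named by letter. The *V1rb* group of 10 symbols and the *V1rj* group of 2 held the symbols that passed, and the others, among them *V1rc* with 31, *V1rd* with 18 and *V1rh* with 18, held none. Mean levels of the V1r genes relative to the floor level had a median of -0.53. The symbols *V1ra6* and *V1rh6* are given as examples of a low and of a widely spread signal. *V1ra6* was among the lowest of all receptors, at 6.41, 6.29 and 6.30. *V1rh6*, named after its values were seen, had the widest centred spread between arrays among receptors with 1 probe, with log2 signals of 6.63, 6.51 and 6.19 and detection p-values of 0.0481, 0.233 and 0.996.

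The V2r genes, whose products carry a large extracellular domain that binds peptide pheromones, included no symbol that passed on any array, and their median level relative to the floor level was -0.55. The highest mean signal was that of *V2r1*, with 6.53, 6.51 and 6.41 on the 3 arrays, and the lowest that of *V2r16*, with 6.34, 6.38 and 6.29. For 3 current genes the table holds 2 symbols each, named here for that reason, and whether their probes share sequence was not tested. *V2r1b* and *Vmn2r26*, both names of the same gene, had 6.54, 6.46 and 6.36 for the first and 6.48, 6.50 and 6.37 for the second. *V2r8* and *V2r9*, both now *Vmn2r129*, had 6.53, 6.51 and 6.37 for the first and 6.38, 6.50 and 6.41 for the second. *V2r12* and *Vmn2r122*, likewise names of a single gene, had 6.47, 6.48 and 6.34 for the first and 6.46, 6.52 and 6.40 for the second. In none of the 3 pairs was either symbol detected on any array.

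Of the taste receptors, the bitter receptors included no symbol that passed among 32, and a single one, *Tas2r107*, had a detection p under 0.05, at 0.0235 on replicate 3. It was also the highest of the Tas2r genes by mean signal, with 6.54, 6.50 and 6.54. *Tas2r125* was the lowest of all 200 receptors, with 6.43, 6.32 and 6.21 and detection p-values of 0.879, 0.972 and 0.991. *Tas1r1*, the partner of *Tas1r3* in the umami receptor, had log2 signals of 6.54, 6.39 and 6.31, and detection p-values of 0.329, 0.822 and 0.829. *Tas1r2*, its partner in the sweet receptor, had 6.56, 6.56 and 6.31, and detection p-values of 0.204, 0.106 and 0.822. Both lay below the floor on every array.

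None of the 15 trace amine receptors passed on any array. Their levels relative to the floor level ran from -0.61 to -0.47, and their lowest detection p-values on replicates 1, 2 and 3 were 0.157, 0.0343 and 0.259. *Taar1*, which unlike most of the family is known from brain rather than from the olfactory epithelium, had log2 signals of 6.55, 6.43 and 6.23 and detection p-values of 0.259, 0.643 and 0.986. The highest mean was that of *Taar8a*, with 6.55, 6.56 and 6.35. The closely related genes *Taar7a*, *Taar7b*, *Taar7d*, *Taar7e* and *Taar7f* had detection p-values between 0.371 and 0.876 on all arrays.

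Receptors that were high on one array were mostly not high on the next. Across the 156 receptors with 1 probe and no call, Pearson's r of the log2 signal was 0.11 for replicates 1 and 2, -0.01 for replicates 1 and 3, and 0.08 for replicates 2 and 3. The corresponding Spearman's rho values were 0.06, -0.02 and 0.05. These values are across genes, which share the arrays and are not independent replicates, and they are given as a description. The same r for 882 olfactory receptors with 1 probe and no call was similarly low, at 0.05, 0.11 and 0.11. For 14465 other symbols with 1 probe and no call, olfactory receptors left out, it was 0.26, 0.24 and 0.19. Of the 10 receptors with the highest signals on any array, taken from all 200, 2 were also among the 10 highest on either of the others. The overlap that unrelated orders of the receptors would give was not computed. The count of 2 therefore does not show that the arrays lacked agreement among the highest receptors.

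**Figure D3:**
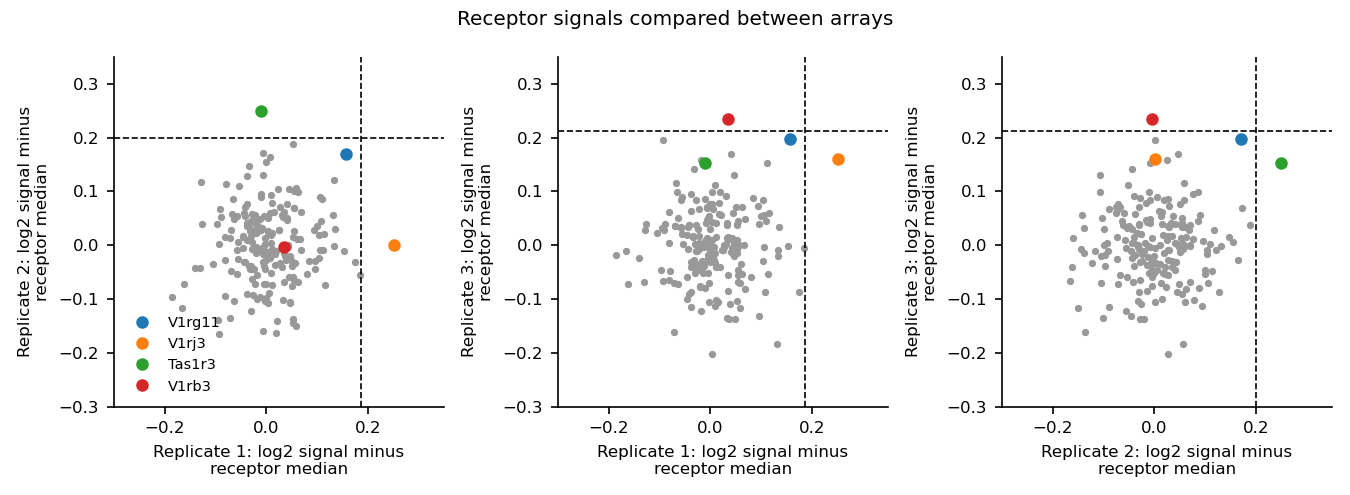
Log2 signal of each of the 200 receptors minus the receptor median of the array, for each pair of arrays, with the detection floors as dashed lines. Pearson's r was 0.11, -0.01 and 0.08 for undetected receptors with 1 probe, *V1rj3*, *Tas1r3* and *V1rb3* lie beyond the floor of 1 array each, and *V1rg11* lies just below the floor on all 3.

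The size of this spread was set beside the scatter between beads. For the 159 receptors with 1 probe, the root mean square SD between arrays, after centring each array on its median, was 0.071 on the log2 scale. The root mean square standard error over beads of the same values, converted from the deposited linear scale to log2, was 0.051. Its square is 51.3% of the variance between arrays. Signals from few beads also scattered more widely: the SD around the array's receptor median was 0.088 over 168 values from 36 beads or fewer and 0.060 over 151 values from more than 43 beads. Spearman's rho between a receptor's distance from the median and its number of beads was -0.15, -0.14 and -0.24 on the 3 arrays. The calls of *Tas1r3* and *V1rj3* rested on 24 and 25 beads, and the part of bead number in them was not tested.

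Other families with expression restricted to particular tissues were read in the same way. The olfactory receptors, a much larger family of chemosensory receptors in the nose, were represented by 1095 symbols. Of these, 1.8%, 1.1% and 1.3% had a detection p under 0.01 on replicates 1, 2 and 3, and 3.7% on at least 1 array. A single one, *Olfr724*, was detected on all 3 arrays, with log2 signals of 6.77, 6.74 and 6.80 (named after its values were seen). In the limma test 0 of the olfactory receptors reached an adjusted p under 0.05 and 1, *Olfr724*, an unadjusted p under 0.05. The median level relative to the floor level was -0.54 for both the olfactory receptors and the 200 receptors. The 6 formyl peptide receptors, some of which are also vomeronasal receptors, and the 27 keratin-associated proteins had no call on any array. Among 41 defensins, 9 genes of pheromone-binding and lipocalin proteins, and 8 symbols starting with Csn (caseins, and *Csnrp3*, which is not a casein), no symbol was detected on all arrays, and 2, 1 and 2 on at least 1. These were *Defcr26*, *Defcr6*, *Mup4*, *Csn3* and *Csnrp3*, named after their values were seen. In the limma test *Defcr6* alone of them reached an adjusted p under 0.05, at 0.90 above the floor level (SE 0.07, limma adjusted p = 0.00037). None of the other 4 groups had a symbol called.

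The genes that act downstream of the receptors were examined from a list of 49, of which 46 were found in the table. The list joins the vomeronasal, taste and olfactory pathways, so that G proteins used by many tissues stand beside components of sensory cells. The other 3, *Calhm1*, *Calhm3* and *Rgs21*, were not found. On all 3 arrays 6 of the 46 genes were detected, where 20.6% of all symbols were. On at least 1 array 13 were, where 33.0% of all symbols were. The list was thus not called more often than symbols at large. By pathway, with some genes in more than 1, all arrays detected 4 of 21 vomeronasal, 3 of 13 taste and 1 of 16 olfactory genes. *Gnai2*, the G protein alpha subunit of V1r neurons and also widely expressed, had log2 signals of 10.52, 10.26 and 9.92. *Gnb1*, a common G protein beta subunit, had 9.90, 10.002 and 9.50. Both stood far above the floor on every array.

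The other genes detected were lower. *Gna14*, a Gq-class alpha subunit found in taste cells among other tissues, had 8.28, 7.96 and 7.23, and *Gng13*, the gamma subunit that partners gustducin, had 7.57, 7.59 and 7.02. *Itpr3*, the calcium release channel of taste and vomeronasal cells, had 7.25, 7.11 and 6.75, and *Reep1*, a receptor-trafficking protein, had between 6.91 and 7.02. In the limma test 8 of the 46 reached an adjusted p under 0.05, with *Gnao1* and *B2m* added to these 6, where 25.8% of all symbols did. *Gnao1*, the alpha subunit of V2r neurons, was 0.30 above the floor level (SE 0.07, limma adjusted p = 0.0243). That excess is smaller than the range of the floor level between arrays, which the SE leaves out. *B2m*, the light chain that accompanies the V2r-associated H2-M10 molecules and all classical class I molecules, was 2.53 above the floor level (SE 0.08, limma adjusted p = 1.04e-05). It was missed by the combined detection p, at 0.0688, 0.0820 and 0.0177.

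Components that define the receptor cells were not among them. *Trpc2*, the channel of vomeronasal neurons, had log2 signals of 6.73, 6.47 and 6.55 and detection p-values of 0.00534, 0.441 and 0.0192, and so passed on replicate 1 alone. *Gnat3* had 6.49, 6.48 and 6.43, and *Trpm5* had 6.52, 6.49 and 6.30. *Plcb2*, the phospholipase of taste cells, had 6.57, 6.45 and 6.39, and *Omp*, the marker of mature olfactory neurons, had 6.54, 6.37 and 6.39. These 4 passed on no array, and their signals lay within the range of the receptors themselves. The remaining genes that passed on part of the arrays were *Gnao1* and *Ebf3*, each on 2, and *Gng8*, *Adcy2*, *Entpd2* and *Ric8b*, each on 1. *Ebf3*, a transcription factor of olfactory neurons among other cells, had 6.83, 6.72 and 6.77.

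**Figure D4:**
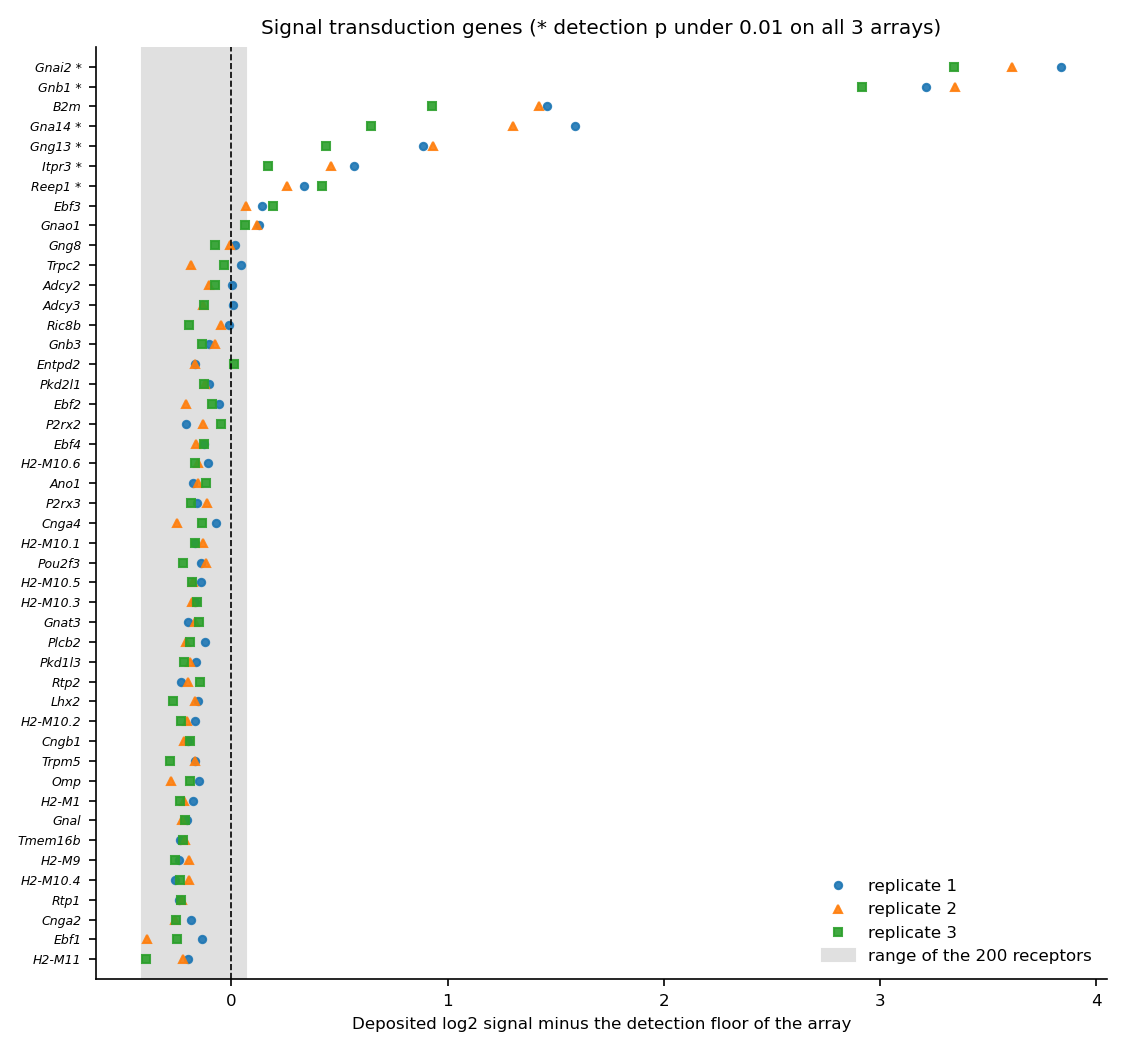
Deposited log2 signal minus the detection floor of the array (horizontal axis) for the 46 signal transduction genes (vertical axis), with 1 marker per array and the range of the 200 receptors in grey. The genes marked with an asterisk were detected on all 3 arrays, and *Trpc2*, *Gnat3*, *Trpm5*, *Plcb2* and *Omp* lie within the grey band.

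The genes also shared features that their names do not fix. Of the 200 symbols, 64 are current in the RefSeq annotation of GRCm38.p6 and 126 match an older symbol of a single current gene. For 6 symbols several current genes match, and for 4 none. Of 187 genes with a place in that annotation, 164 (87.7%) have another vomeronasal, taste or trace amine receptor gene as an immediate neighbour on at least 1 side. The corresponding share was not computed for other gene families. The RefSeq table of gene starts held a sequence for 159 different genes of these symbols. The 250 bases before the annotated start were searched for the dinucleotide CG, which reads the same on both strands. The median receptor had 1 CG, and 37.7% had none. Genes of symbols detected on all arrays had a median of 17 over 4223 windows and 0.474% had none. Over all promoters of the table the share with none was 8.26%.

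In 129 of these 159 (81.1%) the annotated start is directly followed by ATG, against 1.02% for the detected symbols. For these the window is the sequence before the start codon rather than before a mapped transcription start. Among the 30 others the median was also 1, and 36.7% had none. The 3 taste type 1 genes had a median of 5 and none was without a CG, and *Vmn2r29*, named after its value was seen, had the most at 17. The olfactory receptors had a median of 1, with none in 44.5%. Symbols outside these families that were detected on no array had a median of 8 and none in 5.28%.

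**Figure D5:**
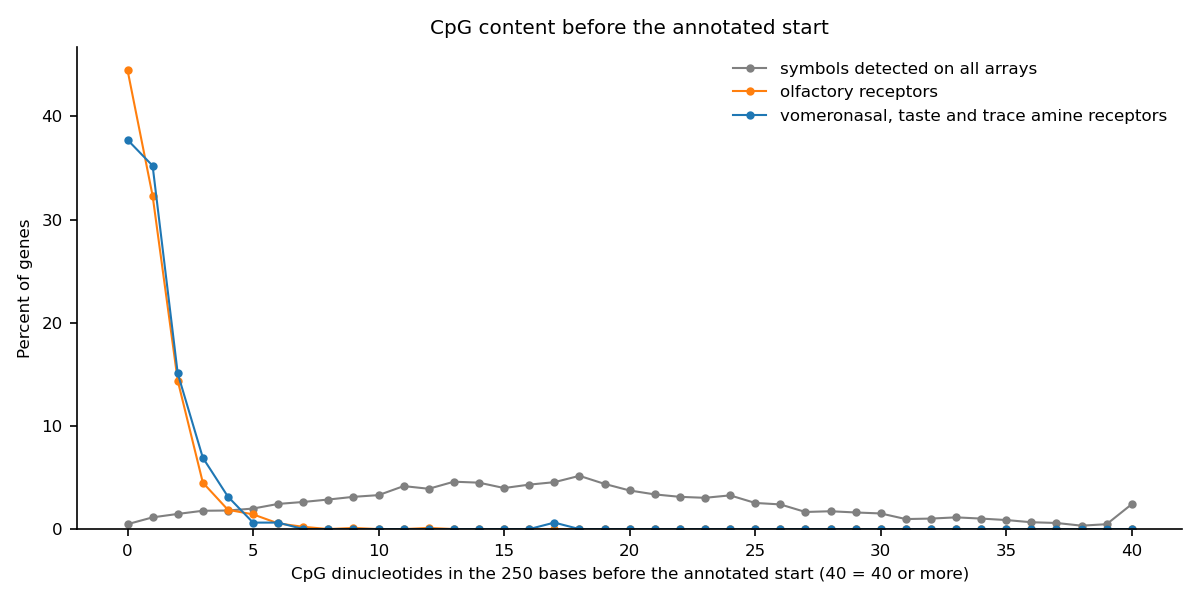
Percent of genes (vertical axis) by the number of CpG dinucleotides in the 250 bases before the annotated start (horizontal axis), for the receptors, the olfactory receptors and the symbols detected on all arrays. The receptors and olfactory receptors peak at 0 and 1, whereas detected symbols have a median of 17.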

How the data were processed

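RNA of 3 arrays (Illumina Mouse-6) of a single group was measured. The authors deposited 1 log2 signal per gene symbol, averaged over its probes and not normalized between arrays, with a detection p-value, the mean number of beads and their standard error. Partek is the one program that the submitters' processing notes name, and the settings behind the deposited values are not given in the sources used here. The labels name a column kit for RNA and the methods a different reagent. The members and gene lists were chosen with earlier results of these data known. Receptors were named where a detection p was under 0.01 on all arrays or, with under 20 such, on at least 1 (up to 20), where the mean signal was among the 3 highest or 3 lowest, and where it was the highest of a family. All taste type 1 and trace amine symbols could be named. Of the gene lists, detected genes and *Trpc2*, *Omp*, *Gnat3*, *Trpm5* and *Plcb2* were to be named, and genes outside these rules were chosen after their values were seen.

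A symbol was taken to have 1 probe where its bead numbers were whole and its detection p-values lay on steps of 1 in 936 (tolerance 0.002) on all arrays, which held for 21986 symbols. Background was corrected with normexp from the detection p of these symbols, an offset of 16 was added, and levels were quantile normalized and set to log2. The floor level was the lowest level of a 1-probe symbol with a detection p above 0 and under 0.01, averaged over the arrays, and each level minus it was tested over all genes with limma 3.58.1 (lmFit, eBayes, one-sided, Benjamini-Hochberg adjustment), in R 4.3.3. In contrast to subtracting each array's own floor level, this keeps a shift shared by all symbols out of their spread. The test was checked on simulated data, where it did not recover the smallest excess over the floor level that was simulated. Python 3.11.15, pandas 2.3.3 and scipy 1.17.1 were used for the counts. The number of arrays limits the precision of every level. Probe sequences were not used here.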

Additional observations from a re-analysis of the deposited data

How the results depend on the processing

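The count of receptors detected on all arrays was 0 with a detection p under 0.01 or 0.001, on at least 2 arrays, with symbols of 1 probe, in the limma test and without each replicate in turn. The limma test shares its threshold with the detection calls and is not an independent check for receptors with 1 probe. For the other receptors its floor level was still that of symbols with 1 probe. The count of detected receptors was 1 (*V1rg11*) with a detection p under 0.05 on all arrays and 3 on at least 1 array. With 0.05, the counts on replicates 1, 2 and 3 were 12, 12 and 9. The limma count was 0 under each of the 9 other settings, with a lowest adjusted p of 0.460, reached by *V1rg11* at 0.11 above a floor level set instead at the 95 percent quantile of 1-probe symbols with no call. The median receptor minus the median of all symbols was -0.042 on the log2 scale, -0.082 after normexp and quantile normalization, -0.0022 against undetected symbols with 1 probe and -0.029 with 1 probe only. Without a replicate it was between -0.055 and -0.051. Of the 46 transduction genes, 13 were detected on at least 1 array, where 33.0% of all symbols were. No paired analysis was possible because the arrays form 1 group. Expression too low to lift a signal over the control probes was not detectable here.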
